A study of Mus musculus with 4 samples.

Results

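The windows described here cover 3 Mb of mouse chromosome 4 (mm10, 145 to 148 Mb), a stretch that holds a cluster of zinc finger genes. A window is a 1 kb step of the genome with at least 3 CpGs that were read at least 1 time in all 4 libraries. Of the 3000 steps in the stretch, 2408 held at least 1 such CpG and 1876 (62.5%) qualified. They held 13890 CpGs and were part of 2001972 qualifying windows on the autosomes and X. The stretch drew attention through its methylation difference between Ogt iKO and control cells in these same libraries, so levels and differences between the groups are given as a description. Calls from a fit to all windows of the genome appear once below, beside their genome-wide shares, and support nothing said about the stretch. At the edge of the rule, the 317 windows with exactly 3 CpGs had an iKO minus control difference of -7.44 points, and the excluded steps with 2 CpGs (314 steps) and 1 CpG (218 steps) had -6.59 and -7.43 points.

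All 4 whole-genome bisulfite libraries came from mouse embryonic stem cells with floxed Ogt (genotype Ogt fl/fl), grown on mitotically inactivated feeder fibroblasts. The 2 Ogt iKO libraries came from cells given 4-hydroxytamoxifen (4-OHT) for 6 days and then sorted for a YFP reporter, and the 2 control libraries from floxed cells that received none. Drug exposure and reporter sorting therefore cannot be told apart from loss of Ogt. Per the labels, viable stem cells of both groups were sorted away from the feeders with a pair of surface markers. The labels use CD90.2 to pick stem cells and CD326 to remove feeders, whereas fibroblasts are known for the former and stem cells for the latter, so which cells the sort kept is uncertain. Feeder DNA in the libraries was not measured here, and the labels do not say whether replicates were separate cultures, so the spread between them may be technical. Mean depth over all of Ogt (X, 101640011 to 101684351, 257 CpGs) was divided by each library's mean depth over all CpGs of chromosome X. The ratio was 1.05 ± 0.0292 in iKO cells against 1.03 ± 0.120 in controls (SD, n = 2 each, exact two-sided permutation p = 1). The labels do not say which part of the gene was floxed, so this value does not check the deletion.

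Many genes of this cluster encode KRAB zinc finger proteins, a fast-evolving family of DNA-binding repressors. Such a protein binds its target, often a sequence from a transposable element, through a row of zinc fingers, while its KRAB domain recruits TRIM28 (KAP1) and with it the histone methyltransferase SETDB1. In embryonic stem cells this machinery lays down repressive H3K9 trimethylation and keeps many retrotransposons silent. Ogt encodes O-GlcNAc transferase, which modifies many intracellular proteins with a single sugar and binds the TET enzymes, which oxidise 5-methylcytosine. Bisulfite conversion leaves both 5-methylcytosine and 5-hydroxymethylcytosine unconverted, so each level below is the sum of both marks.

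RefSeq placed 92 genes in the stretch. Of these, 18 were zinc finger genes by symbol (17 protein-coding genes and the transcribed pseudogene Znf41-ps), lying between 145510759 and 147849126, and 56 were pseudogenes, among them 6 remnants of vomeronasal receptor genes. Of the genes on the outer sides, 8 without zinc finger symbols are called neighbours below (Vps13d, Tnfrsf1b, Tnfrsf8, Miip, Fv1, Mfn2, Plod1 and Nppb). They were taken from a list of names, and other genes, among them Gm36233 and 2510039O18Rik, lay there too. In all, 1342 windows touched a RefSeq gene, 751 of them a zinc finger gene, and 534 touched none.

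Several of the starts share a promoter sequence, and its letters help in reading the values that follow. The RefSeq promoter table (GRCm38.p6, the assembly that mm10 names) held 16 starts of 13 of the 18 zinc finger genes. Shown first are the 250 bases before 4 starts of the shared type whose start windows are described below, each 5′ to 3′ on the gene's strand with every CpG in capitals.
Zfp985, chr4:147553027-147553276, plus strand: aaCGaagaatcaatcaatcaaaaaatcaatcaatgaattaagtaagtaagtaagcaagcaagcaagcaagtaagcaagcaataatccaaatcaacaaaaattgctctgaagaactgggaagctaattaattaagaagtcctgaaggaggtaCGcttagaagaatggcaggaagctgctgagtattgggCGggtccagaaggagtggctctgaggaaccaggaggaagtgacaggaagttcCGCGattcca
Zfp979, chr4:147642509-147642758, minus strand: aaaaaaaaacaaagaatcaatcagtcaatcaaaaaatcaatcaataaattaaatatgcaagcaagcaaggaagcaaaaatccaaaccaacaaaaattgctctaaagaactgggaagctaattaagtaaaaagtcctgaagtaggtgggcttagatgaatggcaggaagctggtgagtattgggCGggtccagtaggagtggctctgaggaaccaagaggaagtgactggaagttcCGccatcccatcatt
Zfp981, chr4:146514670-146514919, plus strand: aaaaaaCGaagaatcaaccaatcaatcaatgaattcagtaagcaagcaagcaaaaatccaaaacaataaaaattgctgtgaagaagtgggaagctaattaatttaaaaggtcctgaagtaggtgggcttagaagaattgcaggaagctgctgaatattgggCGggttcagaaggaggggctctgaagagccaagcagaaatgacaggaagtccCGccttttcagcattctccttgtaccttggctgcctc
Zfp982, chr4:147492167-147492416, plus strand: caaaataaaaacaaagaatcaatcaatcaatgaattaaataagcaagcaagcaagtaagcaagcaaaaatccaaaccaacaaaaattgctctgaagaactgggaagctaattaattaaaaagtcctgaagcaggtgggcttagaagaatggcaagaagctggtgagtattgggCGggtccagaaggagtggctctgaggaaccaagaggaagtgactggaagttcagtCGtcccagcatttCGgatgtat

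In 11 of the 16 entries, from 11 of the 13 genes, the letters TATTGGGCG, the longest shared run with a CpG, occurred within the 250 bases before the start. Over all 32851 entries of the table, searched on both strands, 37 (0.113%) held these letters, and of those outside the zinc finger entries 1 lay in the stretch. The longest run of letters common to 11 entries was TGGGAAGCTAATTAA, which lies further upstream and does not overlap the first; 12 entries of the whole table (0.0365%) held it, and the 1 outside the zinc finger genes also lay in the stretch. The search for shared runs was made after the sequences had been read, so these counts describe the entries and test nothing. Pairwise identity among the 11 promoters ranged from 56.0% to 99.2% with a median of 73.9%, and the closest pair was Zfp600 and Rex2. Reads of the closest copies may not be told apart; which ones can be placed was not tested.

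A further pair of starts carried no TATTGGGCG. These are shown because they were among the least methylated sites of the stretch in every library, with 11 CpGs before the first start of Zfp982 and 8 before that of Zfp933, against 7 before Zfp984 and a median of 6 over all entries, of which 37.8% had 10 or more.
Zfp982, chr4:147442864-147443113, plus strand: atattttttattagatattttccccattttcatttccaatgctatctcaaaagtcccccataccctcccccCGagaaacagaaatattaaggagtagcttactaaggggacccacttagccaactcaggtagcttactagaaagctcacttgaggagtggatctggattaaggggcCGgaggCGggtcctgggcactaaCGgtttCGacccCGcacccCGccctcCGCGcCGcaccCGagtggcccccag
Zfp933, chr4:147848419-147848668, minus strand: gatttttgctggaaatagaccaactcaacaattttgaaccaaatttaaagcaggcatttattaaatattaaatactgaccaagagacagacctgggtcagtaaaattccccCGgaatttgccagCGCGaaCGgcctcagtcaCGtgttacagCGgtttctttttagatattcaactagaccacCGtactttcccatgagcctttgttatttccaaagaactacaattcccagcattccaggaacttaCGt

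Across the 1876 windows, cytosine methylation was lower in both iKO libraries than in both controls. Pooled over all reads, the level was 57.1% and 57.0% in iKO replicates 1 and 2, against 63.6% and 66.2% in control replicates 1 and 2, the order kept throughout. Group means were 57.1% ± 0.0211 for iKO and 64.9% ± 1.88 for control (SD, n = 2 each). Their difference, given throughout as iKO minus control, was -7.82 points with a pooled SD of 1.33. The groups did not overlap, and the difference exceeded the spread between replicates. Reads are counted at each CpG, here and throughout, so 1 read over several CpGs counts several times. The levels rest on 77230 to 96947 reads per library, and the median window had 36 and 33 reads in the iKO libraries against 30 and 28 in the controls. Both iKO libraries were thus also the deeper ones; with every library thinned to the depth of the shallowest, the difference was -7.87 points.

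The cluster's difference was close to that of the rest of the genome. Over the 2000096 other windows the level was 66.2% and 63.8% in the iKO libraries against 71.0% and 74.6% in the controls, a difference of -7.79 points with a pooled SD of 2.12. Cluster minus rest was -7.93 ± 1.63 points in iKO cells against -7.90 ± 0.622 in controls, and the 2 groups overlapped. The difference in differences was -0.0278 points with a pooled SD of 1.24, and against the rest of chromosome 4 it was -0.0219. Weighting the classes of CpG number, depth and gene overlap alike in both sets, by the cluster's share of CpGs, narrowed the gap in level to -6.54 points in iKO cells against -6.38 in controls, and left -0.162 points between the groups (pooled SD 1.43). With at least 5 reads per CpG, which leaves 546 of the cluster's windows and 22998 in all, the difference in differences was -2.61 points with a pooled SD of 1.11, and with at least 10 CpGs per window it was 1.26 with a pooled SD of 0.950. With neither of these restrictions the cluster stood below the rest of the genome in all 4 libraries, and the gap overlapped between the groups.

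In every library the cluster held fewer highly methylated windows than the rest of the genome. Windows at 80% or more made up 15.6% and 18.5% of the cluster in the iKO libraries against 28.6% and 39.6% in the controls. Elsewhere the same class made up 30.1% and 25.3% in iKO cells against 44.0% and 58.1% in controls. At the other end, windows under 20% made up 7.36% and 7.57% of the cluster in iKO cells against 4.16% and 4.48% in controls. Elsewhere that class made up 2.81% and 3.10% against 2.22% and 2.15%. In the cluster and elsewhere, the iKO libraries thus had fewer windows in the high class and more in the low class, with no overlap between groups in either.

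Window by window the direction was mixed. The middle difference was -7.88 points, the quartiles were -15.4 and -1.60, and 79.7% of windows had a lower mean in iKO cells, against 77.3% in the rest of the genome. Both iKO libraries lay below both controls in 816 of the 1876 windows (43.5%), where the share over all windows tested was 38.1%. Both lay above both controls in 84 (4.48%), where the share over all windows was 4.7%. The levels of single windows were loosely reproducible: across the 1876 windows, which share library and depth, Spearman's rho was 0.621 between the 2 controls and 0.681 between the 2 iKO libraries.

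No window of the cluster was called. In a quasi-binomial model fitted to methylated and unmethylated reads of all 2001972 windows, a call needed at least 10 points between the group means besides a Benjamini-Hochberg adjusted p under 0.05. By that rule 0 of the 1876 windows were lower, with 5e-05% of all windows called (1 window, on chromosome 11 at 3193001 to 3194000), and 0 were higher (0% of all windows). The smallest adjusted p in the cluster was 0.243. At an unadjusted p under 0.05, 303 windows (16.2%) were lower, against 11.2% of all windows, and 8 (0.426%) were higher, against 0.312%. By limma on logit levels the smallest adjusted p was 0.550, and 164 windows (8.74%) had an unadjusted p under 0.05, against 9.06% of all windows; 153 of them (8.16%) were lower, against 8.52%. With reads summed over 10 kb, 60 of 259 windows were called lower, against 17.2% of all 10 kb windows. Since the contrast chose the stretch, nothing is read from these shares.

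**Figure D1:**
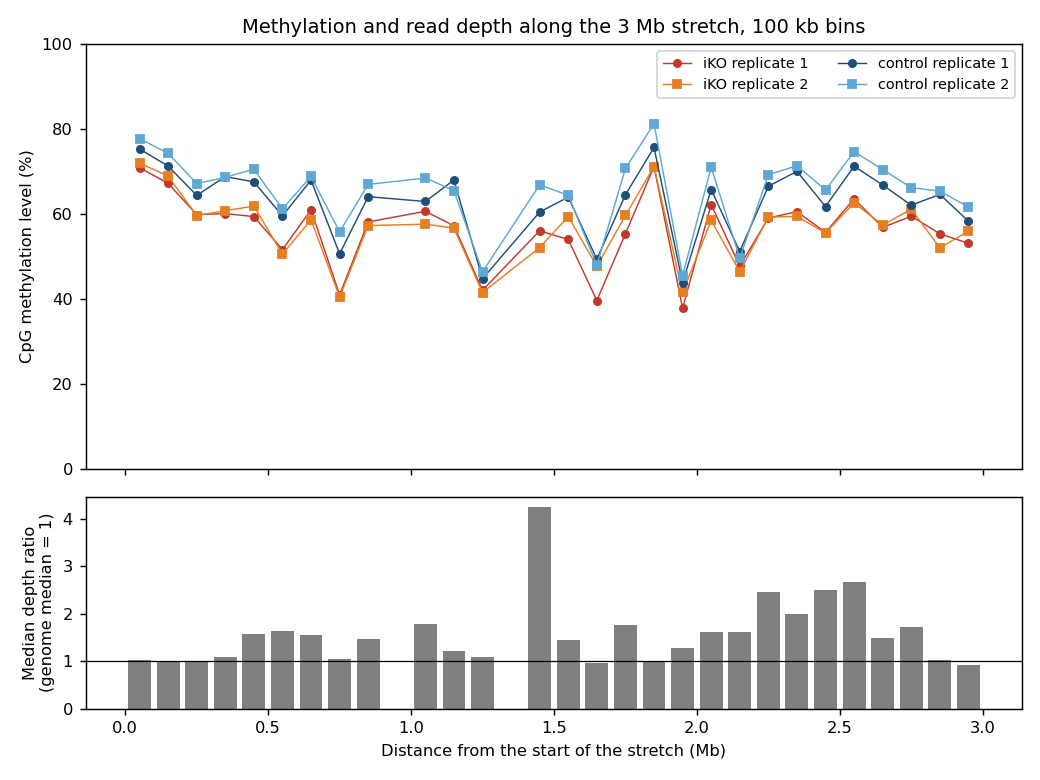
Pooled CpG methylation level in % of each library (upper panel) and median depth ratio of the windows (lower panel; 1 is the library median over all windows of the genome) in bins of 100 kb, against distance in Mb from the start of the stretch. Red and orange are the 2 iKO libraries and the blues the 2 controls. In all 28 bins with member windows both iKO libraries lie below both controls, and 2 bins hold no member window.

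The difference was present along the whole 3 Mb. In the plot of levels along the stretch, both iKO libraries lay below both controls in 28 of 28 bins of 100 kb, as they did in 96.7% of all such bins of the genome. The difference ranged from -3.33 points in the bin from 147100001 to -12.5 points in the bin from 145700001. The former bin holds part of Zfp978 and all of Zfp991, whose body alone differed by -16.1 points. The latter bin holds the ends of Zfp980 and Znf41-ps and all of Vmn2r-ps15 (145701675 to 145775917). That pseudogene differed by -12.2 points, or by -6.31 when each CpG counted equally. The latter bin stood at 40.9% and 40.4% in the iKO libraries against 50.6% and 55.8% in the controls. The 1288 windows between the first and last zinc finger gene differed by -8.10 points (pooled SD 1.33) and the 588 windows flanking them by -6.77 points (pooled SD 1.43). Within each library, the level between the zinc finger genes minus that of the flanks was -4.97 and -6.47 points in the iKO libraries against -4.39 and -4.38 in the controls. The groups did not overlap, and the gap of -1.33 points had a pooled SD of 0.751, most of it from the 2 iKO libraries.

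Of the 3 features that divide the windows (depth, CpG number and gene overlap), depth set the cluster apart most. A window's depth ratio is its mean reads per CpG over the library's median window, averaged over the 4 libraries, and serves as a measure of sequence whose copies collapse onto fewer places in the assembly; whether it counts copies was not tested. Ratios of 1.5 or more made up 42.6% of the cluster's windows and 2.48% of the rest, and ratios of 3 or more made up 14.3% and 0.0958%. Median ratios over the 751 windows on zinc finger genes were 1.81 and 1.79 in the iKO libraries against 1.72 and 1.66 in the controls. Windows on the 8 neighbours had 0.926, 1.01, 0.944 and 0.946, so these neighbours lacked the excess. Windows outside RefSeq genes had it too, with a median ratio of 1.32 against 1.27 inside genes and ratios of 3 or more in 15.2% and 14.0%, and windows over vomeronasal receptor pseudogenes had a median of 1.48. The deepest bin, from 146400001 over Zfp992, had a median ratio of 4.25.

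The depth ratio was higher in both iKO libraries between the zinc finger genes. Over all members the median ratio was 1.36 ± 0.0520 in iKO cells against 1.32 ± 0.0329 in controls (SD, n = 2 each; exact two-sided permutation p = 0.667), with overlap. In the 1288 windows between the first and last zinc finger gene it was 1.71 ± 0.00796 and 1.65 ± 0.0282, without overlap. On zinc finger genes it was 1.80 ± 0.0135 and 1.69 ± 0.0466, higher in both iKO libraries (exact permutation p = 0.33 in both sets). That is the smallest p the 6 arrangements of 4 libraries allow, so the design cannot reach 0.05. Between the zinc finger genes the ratios of the 4 libraries were 1.72, 1.71, 1.67 and 1.63. They fell in the order of the libraries' median reads per CpG (4.20, 3.75, 3.60 and 3.38), as did those on zinc finger genes. The ratio was not taken at equal library depth, so the part of library depth was not tested.

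By depth, the difference was smallest in the shallowest windows. The 174 windows with a ratio under 0.75 stood at 50.2% ± 1.71 in iKO cells against 53.7% ± 0.962 in controls, a difference of -3.47 points. From there it was -6.94 points for 902 windows at 0.75 to 1.5, -8.41 points for 531 windows at 1.5 to 3 and -8.74 points for 269 windows at 3 or more, with pooled SDs of 1.45, 1.66 and 1.53. Windows of the cluster inside genes kept this order, with -2.95, -6.18, -8.53 and -9.12 points. Those outside genes did not, with -7.76, -8.99, -7.72 and -7.83 points. In the rest of the genome the order ran otherwise, with -5.61, -8.02, -7.50 and -4.50 points in the same classes. The gap between windows at 1.5 or more (-8.61 points) and those at 0.75 to 1.5 was -1.67 points with a pooled SD of 1.03. Deep minus ordinary within each library was 0.575 and -1.45 points in the iKO libraries against 1.03 and 1.43 in the controls, without overlap. The gap shrank to -0.396 when each window counted equally, to -0.520 when each CpG did and to -0.0780 with at least 2 reads per CpG. It widened to -2.73 with at least 10 CpGs per window, and ran from -2.68 to -0.656 with 1 library left out. Across single windows, which share libraries, Spearman's rho between depth ratio and difference was -0.00712.

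The share of the cluster's windows that were lower in both iKO libraries also rose with depth. Both iKO libraries lay below both controls in 32.2%, 38.1%, 50.7% and 54.6% of windows in the 4 depth classes, from shallow to deep. The shares over all windows of the genome were 30.6%, 38.8%, 39.6% and 53.2%. These rose too, while the difference in the rest of the genome was smallest in the deepest class, at -4.50 points. Such shares thus need not follow the size of the difference. Deeper windows hold more reads per CpG, and the part of read number was not tested.

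By CpG number, windows below 20 CpGs behaved alike and denser ones stood apart in level. With 3 to 5 CpGs (887 windows) the level was 60.4% ± 0.0872 in iKO cells against 68.5% ± 2.11 in controls, a difference of -8.05 points. Windows with 6 to 9 CpGs (630) and 10 to 19 CpGs (287) differed by -9.00 and -8.06 points. The 72 windows with 20 or more CpGs were at 37.6% ± 0.621 and 42.9% ± 1.05, a difference of -5.35 points (pooled SD 0.863). The same class of the rest of the genome differed by -5.31 points. Within the cluster the difference of the dense windows was wider in the deeper ones. It was -6.33 points for 27 windows at depth ratios of 1.5 to 3 and -16.7 for 3 windows at 3 or more. The groups overlapped in the 29 at 0.75 to 1.5 (-2.40 points), in the 13 under 0.75 (0.639 points) and in the 13 dense windows of the flanks (-0.908 points). Control means of the dense windows also rose with depth, at 23.6%, 31.8%, 48.6% and 72.7% from the shallowest class to the deepest. The parts of depth and level were not tested.

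**Figure D2:**
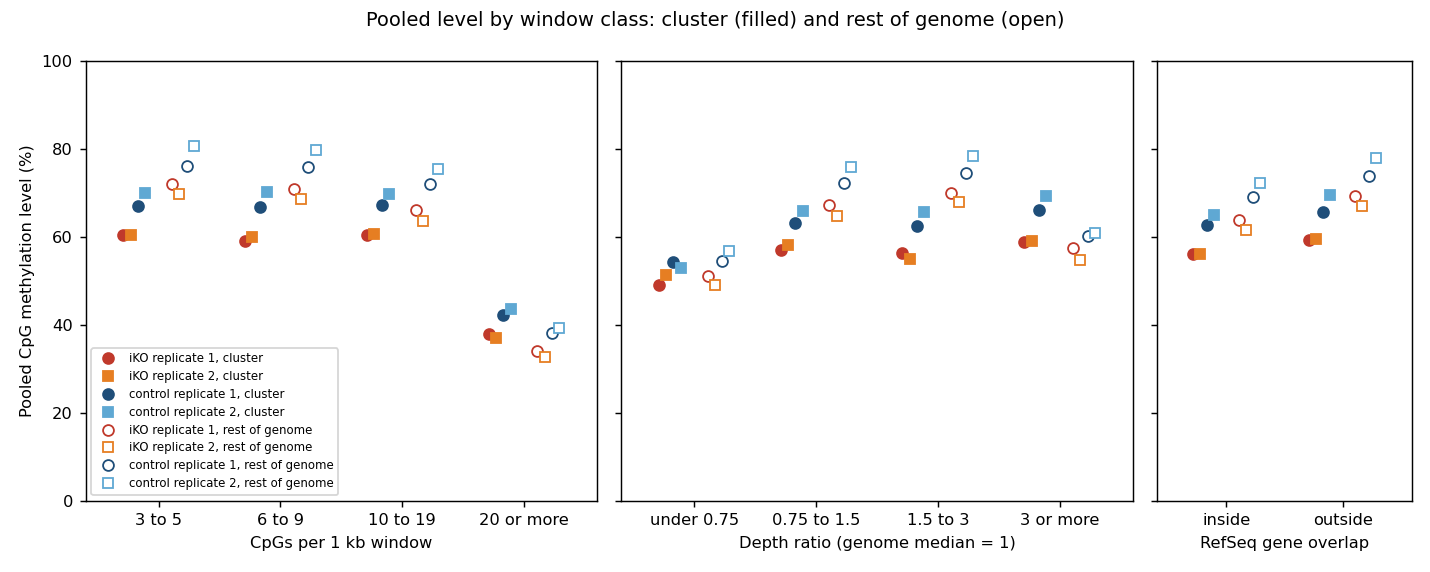
Pooled CpG methylation level in % by CpGs per window, by depth ratio and by overlap with a RefSeq gene, for each library in the cluster (filled) and in the rest of the genome (open). iKO libraries are red and orange and controls blue. In the cluster, iKO libraries lie below controls in every class, with the smallest difference (-3.47 points) at depth ratios under 0.75, and windows with 20 or more CpGs are lowest.

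Control levels of the dense windows lay toward both ends of the scale. In 26 of the 72 the control level was under 20% and in another 26 it was 80% or more. The 26 low ones stood at 5.26% and 5.60% in the iKO libraries against 9.58% and 8.77% in the controls, a difference of -3.75 points. The 46 at 20% or more in the controls stood at 60.7% and 60.02% against 69.0% and 71.8%, a difference of -9.997 points. The split uses control levels, so part of it follows from how it was made. Only 10 of the 72 held a RefSeq gene start (14.2% in controls, -4.25 points), 23 lay over a pseudogene shorter than 10 kb without a start (24.8%, -6.87 points), and 39 had neither (65.1%, -5.93 points).

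By gene overlap, the difference was -7.70 points in the 1342 windows inside RefSeq genes and -8.14 points in the 534 outside, a gap of -0.431 points with a pooled SD of 0.844. The gap depended on the setting: it was 0.999 (pooled SD 0.872) with at least 5 reads per CpG and -1.73 (pooled SD 1.36) with at least 10 CpGs per window. Inside genes, windows on zinc finger genes were at 56.6% in iKO cells against 65.3% in controls, a difference of -8.76 points (pooled SD 0.883). The 327 windows on the neighbouring genes were at 64.0% and 69.1%, a difference of -5.07 points (pooled SD 1.11). The 238 windows over vomeronasal receptor pseudogenes, which partly overlap zinc finger genes, differed by -8.41 points. Zinc finger genes thus had the lower level and the wider difference. Their windows were also deeper, with a median depth ratio of 1.74 against 0.973, and the part of depth was not tested.

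The bodies of all 18 zinc finger genes were lower in both iKO libraries than in both controls, where 73.6% of 36370 RefSeq gene bodies with at least 10 CpGs were; 0 were higher in both, where 1.25% of RefSeq bodies were. Their differences ran from -16.5 to -4.94 points with a median of -9.95, while the median over all RefSeq bodies was -7.78. In zinc finger genes elsewhere on the autosomes and X, picked by symbol, 314 of 396 measured bodies (79.3%) were lower and the median was -8.07 points, with a 10th to 90th percentile range of -12.8 to -2.51. Some annotations here are long and overlap others, Zfp993 and Zfp978 above all, so the 18 bodies are not independent. Counting only windows with a depth ratio under 1.5, 13 of the 16 genes that could be measured were lower, with a median of -9.38 points. RefSeq bodies elsewhere were not counted under this limit, so the 13 of 16 have no matching share.

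**Figure D3:**
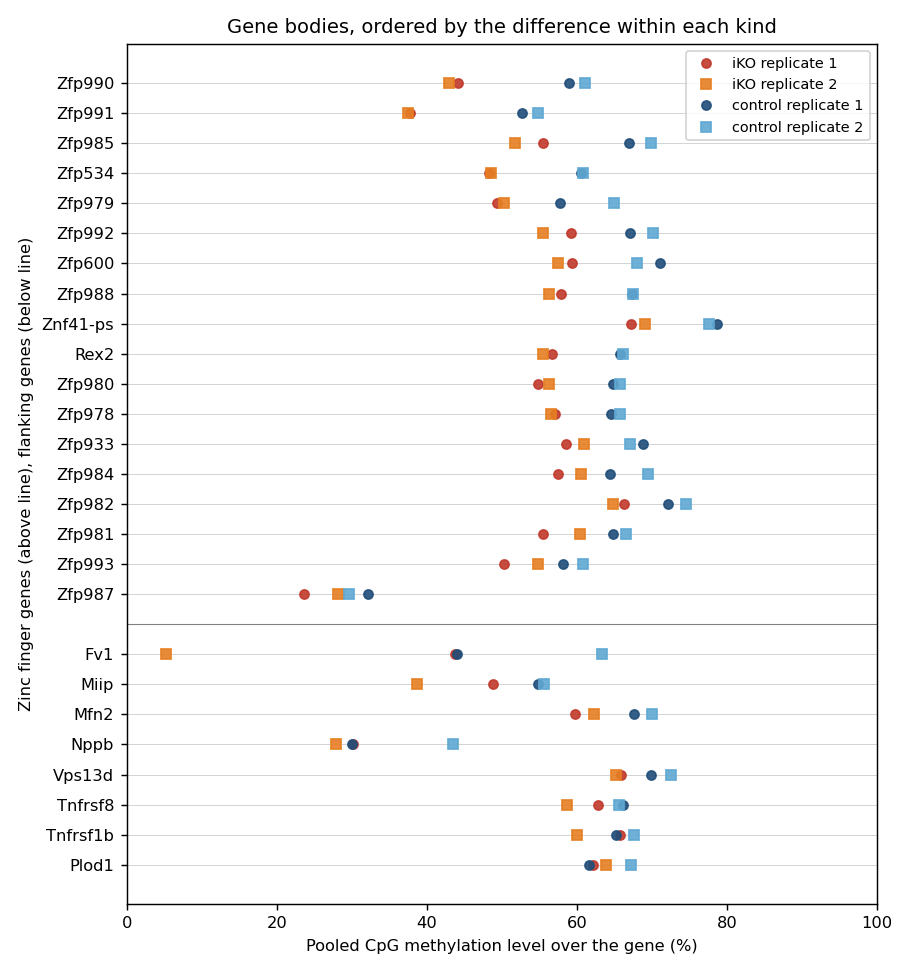
Pooled CpG methylation level in % over each zinc finger gene (above the line) and each neighbouring gene (below it), 1 point per library, ordered by the difference within each kind. Red and orange are iKO libraries and blue are controls. In all 18 zinc finger genes both iKO points lie left of both control points, from -16.5 points in Zfp990 to -4.94 in Zfp987, and in 3 of the 8 neighbours the groups overlap.

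Zfp990, at the outer edge of the cluster (145510759 to 145538251), had the widest difference by reads. It stood at 44.2% and 43.0% in the iKO libraries against 59.0% and 61.1% in the controls, or -16.5 points over 102 CpGs with 540 to 885 reads in each library. Zfp991 (147132093 to 147180579) followed with 37.8% and 37.5% against 52.7% and 54.8%, or -16.1 points. In both genes the replicates lay within a few points of each other and the groups were far apart.

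Zfp985 (147553277 to 147585201) was at 55.4% and 51.7% in the iKO libraries against 66.9% and 69.9% in the controls, a difference of -14.9 points. Zfp534 (147674225 to 147702631) was at 48.2% and 48.5% against 60.5% and 60.9%, a difference of -12.3 points with a pooled SD of 0.238. Zfp979 (147611936 to 147642508) was at 49.4% and 50.3% against 57.7% and 65.0%, a difference of -11.5 points with a pooled SD of 3.65. RefSeq lists Zfp979 also as Ssm1b, a KRAB zinc finger gene known for directing strain-dependent DNA methylation of a transgene. These 3 genes lie side by side and, with Zfp990 and Zfp991, were the 5 widest differences by reads. With equal weight per CpG, Zfp985 (-15.7 points) was widest, ahead of Zfp991 (-14.9) and Zfp990 (-14.5). Under that weighting Zfp992 (-13.1) took the place of Zfp979 (-11.6) among the 5.

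The 5 smallest differences were in Zfp987 (-4.94 points), Zfp993 (-6.94), Zfp981 (-7.74), Zfp982 (-7.80) and Zfp984 (-7.90). Zfp987 (146097312 to 146126624) had by far the lowest level, with 23.7% and 28.1% in the iKO libraries against 32.1% and 29.6% in the controls. Its iKO replicate 2 came within 2 points of control replicate 2, and it rests on 55 CpGs and 277 to 321 reads per library. With equal weight per CpG, in place of equal weight per read, its difference was -10.4 points, so its last place depends on where the reads fell. The lowest control levels after Zfp987 (30.9%) were in Zfp991 (53.7%), Zfp993 (59.5%), Zfp990 (60.05%) and Zfp534 (60.7%). The highest were in Znf41-ps (78.2%), Zfp982 (73.3%), Zfp600 (69.6%), Zfp992 (68.6%) and Zfp985 (68.4%). A low level in controls did not go with a small difference throughout, since Zfp991 and Zfp990 were among the lowest and had the widest differences by reads.

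The neighbours differed less as a group. In 5 of the 8 bodies both iKO libraries lay below both controls (all bodies, 73.6%), and the median difference was -6.67 points. Vps13d, which encodes a lipid transfer protein, was at 65.9% and 65.2% against 69.9% and 72.5% over 2135 CpGs, a difference of -5.62 points. Mfn2, which encodes a protein that fuses mitochondria, differed by -7.84 points, Tnfrsf8 (the receptor CD30) by -5.13 and Miip by -11.5. The groups overlapped in Tnfrsf1b, the second receptor for tumour necrosis factor (-3.55 points), in Plod1, a collagen lysyl hydroxylase (-1.37), and in Nppb, the precursor of B-type natriuretic peptide (-7.73). With equal weight per CpG, Tnfrsf1b and Plod1 were lower in both iKO libraries and 6 of the 8 bodies were. By reads, Vps13d, Tnfrsf8 and Plod1, the 3 neighbours with the most CpGs, had smaller differences than 17 of the 18 zinc finger genes. This did not extend to Mfn2, next in CpG number (307 against 341 in Plod1). Mfn2 differed by more than Zfp987, Zfp993, Zfp981 and Zfp982, and by -10.6 points with equal weight per CpG.

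Fv1, a retrovirus restriction gene derived from an endogenous retroviral gag gene, showed the widest value and the widest spread. Over 26 CpGs and 114 to 151 reads it was at 43.7% and 5.26% in iKO replicates 1 and 2, against 44.0% and 63.3% in the controls. The nominal difference of -29.2 points rests on iKO replicate 2, and iKO replicate 1 lay within 1 point of control replicate 1. With equal weight per CpG the groups overlapped in Fv1.

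Gene starts were far less uniform than gene bodies. Of the 16 listed starts of zinc finger genes, 15 lay in a member window, and their control levels ran from 0.694% to 85.6% with a median of 26.9%. Both iKO libraries lay below both controls in 10 of the 15 windows, against 31.6% of 26494 windows at RefSeq starts, and above both in 2, against 6.19%. In the other 3 the groups overlapped. With equal weight per CpG, 8 windows were lower, 1 was higher and 6 overlapped. The start of Rex2 lay in no member window.

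**Figure D4:**
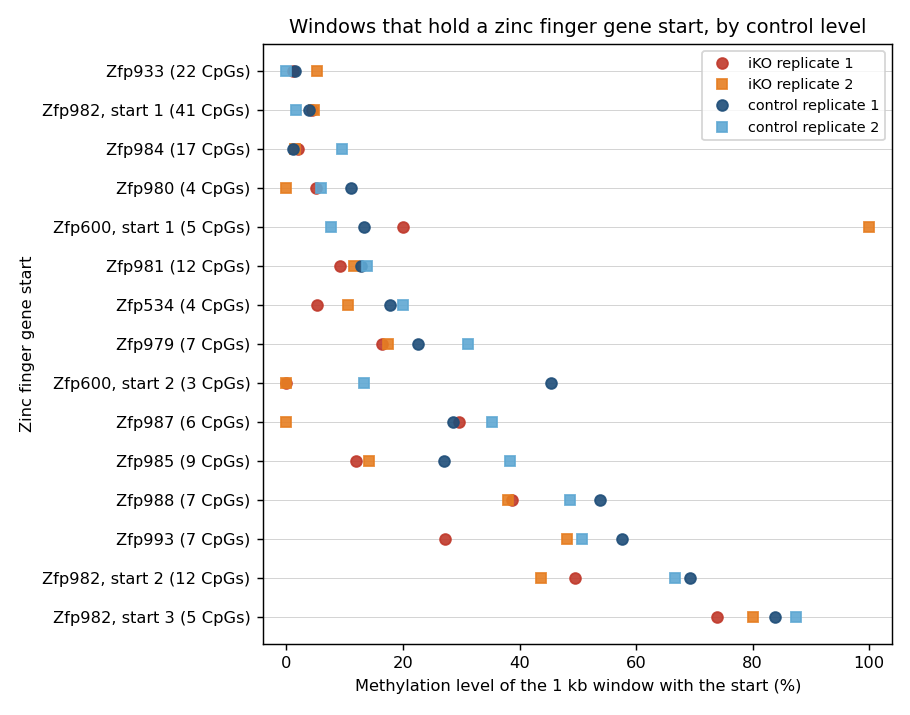
Methylation level in % of the 1 kb window that holds each listed start of a zinc finger gene, 1 point per library, ordered by control level, with the number of CpGs in the window in brackets. Red and orange are iKO libraries and blue are controls. The 3 lowest windows stay under 10% in all libraries, Zfp985 and the second start of Zfp982 show the iKO points well left of the controls, and the 100% point of Zfp600 rests on few reads.

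Among promoters of the shared type, Zfp985 and the second start of Zfp982 had the widest well-covered differences. The Zfp985 start window (9 CpGs, 59 to 99 reads) was at 11.9% and 14.1% in the iKO libraries against 27.1% and 38.4% in the controls, a difference of -19.7 points. Over the 250 bases printed above alone, with 5 CpGs and 30 to 49 reads, Zfp985 was at 15.0% and 16.3% against 30% and 39.5%. These bases hold 5 of the 9 CpGs of the window, so the values are not independent. Promoter bases and window did not go the same way everywhere: those of Zfp979 (2 CpGs, 4 to 15 reads) stood at 7.78 points with overlap, and that of Zfp534 (1 CpG, 5 to 8 reads) at 20.4 points, higher in both iKO libraries.

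At the second start of Zfp982 (147492417; 12 CpGs, 63 to 123 reads) the window was at 49.6% and 43.7% in the iKO libraries against 69.2% and 66.7% in the controls, a difference of -21.3 points. The Zfp979 start window (7 CpGs, 45 to 73 reads) was at 16.4% and 17.5% against 22.6% and 31.1%, a difference of -9.93 points, but 0.618 with overlap when each CpG counted equally. The Zfp981 start window (12 CpGs, 103 to 248 reads, depth ratio 3.64) was at 9.27% and 11.7% against 12.7% and 13.9%, a difference of -2.85 points. By reads the groups were apart in all 3. Among these 3, control level and size of the difference were highest at the Zfp982 start and lowest at the Zfp981 start. Other starts of the shared type did not keep that order. The Zfp985 start had a control mean of 32.7% and a difference of -19.7 points. The Zfp988 start, also of the shared type, was at 38.7% and 38.1% against 53.8% and 48.6%, a control mean of 51.2% and -12.8 points. The Zfp993 start, which is not, was at 27.3% and 48.2% against 57.6% and 50.7%, with iKO replicate 2 close to control replicate 2, and overlapped with equal weight per CpG.

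The CpG inside TATTGGGCG could be read in all 4 libraries at 10 of the 11 genes. Pooled over these 10 positions it was methylated in 22.4% of 85 reads and 19.4% of 62 reads in the iKO libraries and in 28.8% of 66 reads and 30.8% of 52 reads in the controls. The difference was -8.92 points with a pooled SD of 1.80, and the groups did not overlap. Without Zfp988, which held the most reads in every library, the groups overlapped, at 20% and 12.5% against 19.6% and 23.1%. With any other of the 10 genes left out they stayed apart. Single positions had 1 to 15 reads, too few to order the genes. Most copies of this base pair were thus unmethylated in every library.

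The 5 lowest starts were those of Zfp933, the first start of Zfp982, Zfp984, Zfp980 and the first start of Zfp600. The Zfp933 window (22 CpGs, 72 to 116 reads) was at 1.19% and 5.17% in the iKO libraries against 1.39% and 0% in the controls. The first Zfp982 window (147443114; 41 CpGs, 128 to 188 reads), which also holds the pseudogene Gm13161, was at 4.32% and 4.79% against 3.93% and 1.56%. The Zfp984 window (17 CpGs) was at 2.04% and 1.52% against 1.19% and 9.52%. These 3 CpG-rich windows were nearly unmethylated in all libraries, with no separation beyond a few points. Their values rest on few methylated reads, and in the first Zfp982 window the iKO libraries were the higher ones by 1.81 points, or 0.444 with overlap when each CpG counted equally.

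The other starts rest on thinner data. Zfp980 (4 CpGs, 17 to 39 reads) was at 5.13% and 0% in iKO cells against 11.1% and 5.88% in controls. The first Zfp600 start (5 CpGs, 5 to 25 reads) was at 20% and 100% against 13.3% and 7.69%, and its nominal 49.5 points upward come from iKO replicate 2. The difference at this start therefore cannot be read from 1 library's few reads, while its place among the lowest starts rests on the 2 controls. The second Zfp600 start (3 CpGs, 6 to 15 reads) was at 0% in both iKO libraries against 45.5% and 13.3%. The Zfp534 start (4 CpGs, 19 to 28 reads) was at 5.26% and 10.5% against 17.9% and 20%, a difference of -11.0 points. The Zfp987 start (6 CpGs, 17 to 27 reads) was at 29.6% and 0% against 28.6% and 35.3%, with overlap. Both iKO libraries were thus lower at Zfp980, the second Zfp600 start and Zfp534, on few reads.

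The 3 listed starts of Zfp982 spanned nearly the whole range of the cluster. In controls the first was at 2.75%, the second at 67.9% and the third, 147500686, at 85.6%. In iKO cells they were at 4.56%, 46.6% and 77.0%. The first, printed above with 11 CpGs, stayed near 0 in both groups, while the others were lower in iKO cells by 21.3 and 8.69 points.

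Single windows with the widest differences were spread over the stretch. Of 343 windows with at least 10 CpGs and 20 reads in every library, 157 were lower in both iKO libraries (45.8%; all such windows of the genome, 46.7%) and 11 were higher (3.21%; all such windows, 3.26%). The widest was at 145463001 to 145464000, outside RefSeq genes, with 14.6% and 15.4% in iKO cells against 41.7% and 61.0% in controls, a difference of -36.3 points. Next came 147176001 to 147177000, on Zfp978 and Zfp991, with 30% and 26.1% against 61.1% and 59.2%, a difference of -32.1 points over 90 to 142 reads. The latter had tight replicates in both groups, with a pooled SD of 2.19, while the former had controls 19 points apart. The other 3 of the 5 widest were at 145481001 (-31.6 points) and 147938001 (-30.8), both outside RefSeq genes, and at 145772001 on Vmn2r-ps15 (-30.6).

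Higher windows were fewer, and some depended on where the reads fell within the window. The first was on Zfp978 at 147202001 to 147203000, with 52.6% and 72.9% in iKO cells against 47.0% and 39.4% in controls, a difference of 19.6 points. With each CpG weighted equally the same window differed by -0.0589 points, with overlap. Of the others in the top 5, 1 was on Tnfrsf8 at 145294001 (16.4 points), 2 on Vps13d at 145034001 (14.7 points) and 145195001 (12.4 points), and 1 on Tnfrsf1b at 145227001 (5.18 points). The window at 145195001, which holds a start of Vps13d, was at 35.7% and 25.6% against 15.5% and 20.9%, and overlapped at -2.25 points with equal weight per CpG. The remaining 3 stayed higher under that weighting, by 13.8, 5.78 and 10.5 points.

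The deepest windows reached many times the median depth. The deepest, at 147423001 to 147424000 (depth ratio 9.31), was at 49.0% and 46.2% in iKO cells against 50.0% and 62.5% in controls. The second, at 146169001 to 146170000 on Zfp600 (ratio 8.69), was at 78.7% and 72.9% against 88.4% and 85.0%. Those at 147428001 (8.57), 147404001 (8.11) and 147432001 (7.78) differed by -3.89, -6.64 and -11.5 points. All 5 were lower in both iKO libraries. So were 54.6% of the cluster's windows at ratios of 3 or more, and 53.2% of all such windows of the genome. The margin was narrow at 147428001, with 62.6% in iKO replicate 2 against 62.7% in control replicate 1. Where several copies share a place, a level is a mean over those copies.

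The windows of lowest control level, picked on that value, had low levels in iKO cells too. At 145745001 to 145746000 (45 CpGs, 100 to 228 reads), on Vmn2r-ps15 and Gm13244, levels were 0% and 0.455% in iKO cells against 0% in both controls. At 146932001 to 146933000 (19 CpGs), on Zfp993 and Gm20760, they were 0% in all 4 libraries over 30 to 55 reads each. The others, at 146580001 on Gm13233, 147848001 at the Zfp933 start and 145194001 on Vps13d, had control means of 0%, 0.694% and 1.39% and iKO means of 3.06%, 3.18% and 1.43%. At 146580001 the iKO libraries stood at 2.41% of 83 reads and 3.70% of 27 reads. With both controls at 0% they could not have been lower. Of the 46 windows with 10 or more CpGs and under 20% in controls, 16 lay over a zinc finger gene and 11 over a neighbour.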

How the data were processed

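Per the submitters' processing notes, BSMAP and Picard were used and the build was mm10; their roles and versions are not given in the sources used here. Read counts per CpG, methylated and total, are deposited columns named in the file headers. The deposited depth corrected for C/T variants is an expected count and was used only as an alternative. Both strands were already merged. The authors' level was not used. Each table was matched to its sample by the genotype and replicate in its name. Over CpGs the libraries held 63985703 to 79563364 reads, with a median of 3.38 to 4.20 reads per CpG in a window. No molecular identifiers mark the reads, and 1 fragment can cover several CpGs, so reads are not independent.

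Levels are methylated over all reads, summed per library, in percent, and means are given ± SD over 2 libraries. Windows were tested genome-wide by a quasi-binomial logistic model with group as its only term, dispersion moderated with limma 3.58.1 in R 4.3.3 and kept at 1 or more, an F test and Benjamini-Hochberg adjustment over all windows. The other test was limma on the logit of methylated over unmethylated reads, each plus 0.5. Library values were compared by exact permutation. The models were tested on simulated data. Joins used PyArrow 21.0.0, pandas 2.3.3 and NumPy 2.4.6, correlations SciPy 1.17.1 and alignments Biopython 1.88. Genes and promoters came from RefSeq tables of GRCm38.p6. Zinc finger genes were taken by symbol (Zfp, Znf or Rex2); a planned search of protein sequences was not made. Gene bodies needed 10 CpGs.

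Named are the 5 lowest and 5 highest differences among windows with at least 10 CpGs, 20 reads per library and groups apart, the 5 deepest windows, the 5 lowest in controls with at least 10 CpGs, the zinc finger genes with the 5 lowest and highest control levels and the 5 widest and smallest differences, all zinc finger starts and the neighbours. Other named features were chosen after their values were seen. The members and lists were chosen with earlier results of these data known. Alternatives covered the read and CpG minimum, corrected depth, deep CpGs, weighting per window or per CpG, class edges, 10 kb windows, gene overlap, the other tests and each library left out.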

Additional observations from a re-analysis of the deposited data

How the results depend on the processing

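The methylation difference of the cluster stayed between -8.88 and -6.69 points under all alternatives that kept the 4 libraries, and between -9.15 and -6.49 points when 1 library was left out. Smaller contrasts moved. Cluster minus rest was 1.26 points with at least 10 CpGs per window and -2.61 with at least 5 reads per CpG. Deep minus ordinary windows was -2.73 with at least 10 CpGs, -0.0780 with at least 2 reads, -0.396 with equal weight per window and -0.520 with equal weight per CpG. CpG-rich minus CpG-poor windows, 1.36 points at the main setting, was 0.420 with 2 reads, 2.43 without CpGs above 5 times the median depth, 2.69 with an edge of 20 CpGs, -2.63 with 5 reads and -29.0 in 10 kb windows, where the poor class is 1 window of 7 to 13 reads. With at least 10 CpGs this contrast has no poor class and no value. Outside minus inside genes was -1.73 (pooled SD 1.36) with 10 CpGs, 0.999 (0.872) with 5 reads, 0.343 (0.674) with 2 reads, -1.67 (0.873) without very deep CpGs and -0.637 (0.544) with equal weight per CpG. The cause of these changes was not tested.

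Leaving out 1 library gave -1.18 to 1.13 points for cluster minus rest, -2.68 to -0.656 for deep minus ordinary, 0.857 to 1.86 for CpG-rich minus poor, -1.27 to 0.406 for outside minus inside, 0.00928 to 0.0827 for the iKO-control gap in depth ratio, 0 calls and 18 zinc finger bodies. The fits then assume that a lone library varies as the remaining group does. Windows called were 60 of 259 at 10 kb and 0 under every other alternative. Zinc finger bodies lower in both iKO libraries were 12 of 15 with at least 10 CpGs per window, 17 of 18 with 2 reads, 15 of 16 with 5 reads, 13 of 16 in windows under 1.5 times the median depth and 18 under the other alternatives; this count and these checks were added after the data were seen.

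Equal weight per CpG was also added after the data were seen. It gave -8.10 points for the cluster and -0.0932 for cluster minus rest, and it turned the sign of the windows at 147202001 (-0.0589 points) and 145195001 (-2.25), of the Zfp979 start (0.618), and of Gm13136 (-4.43), Gm13240 (-0.166), Gm13142 (-1.88) and Gm13146 (-0.735). The sign also turned for Gm13135 (-4.65), Gm13243 (0.468) and the window at 145194001 (-0.179), whose differences by reads were smaller than their pooled SD.

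Replicate numbers were not taken as pairs in the main fit. Deviations of same-numbered libraries correlated at -0.00496 over all windows. This value cannot exclude pairing, since single windows are noisy and a shift common to all windows leaves it unchanged. With the replicate number as a block the differences were the same (-7.82 points for the cluster) and 0 windows were called, with a smallest adjusted p of 0.627.

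Limits are 2 libraries per group, about 30 reads summed over the CpGs of a typical window, and genes with similar promoters, for which read placement was not tested. Repeats and protein sequences were not analysed here.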

Other observations

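Results for single pseudogenes of the stretch depended on how their CpGs were weighted. The 107 windows over pseudogenes shorter than 10 kb were at 40.7% and 35.6% in the iKO libraries against 44.6% and 46.6% in the controls, a difference of -7.40 points. Among 48 pseudogenes shorter than 10 kb, a list drawn up after the values were seen, 28 had at least 10 CpGs. With equal weight per read, 22 of these had a lower mean in iKO cells, with a median difference of -5.24 points (all RefSeq bodies, -7.78). Both iKO libraries were lower in 9 (all RefSeq bodies, 73.6%) and higher in 4 (all RefSeq bodies, 1.25%), with overlap in 15. RefSeq bodies are of any length, while these pseudogenes had 12 to 108 CpGs, and bodies of like size were not compared. Over all 1 kb windows the shares were 38.1% lower and 4.7% higher. With equal weight per CpG, both iKO libraries were lower in 15 of the 28 pseudogenes and higher in 0. The groups overlapped in 13, and the median was -5.30 points. Gm13136 (147735250 to 147738969, 108 CpGs) was at 39.7% and 42.1% in iKO cells against 29.5% and 32.1% in controls by reads, 10.1 points higher, but 4.43 points lower by CpGs. Its 76 CpGs in the dense window from 147738001 had 248 and 288 reads in iKO cells against 426 and 400 in controls, at 6.45% and 10.1% against 8.45% and 8.75%. Its other 32 CpGs were at 73.7% and 83.1% against 77.5% and 79.3%, so the groups overlapped in each of its portions. Gm13034 (146067524 to 146068718, 75 CpGs) was at 13.2% and 11.3% against 21.0% and 23.9%, a difference of -10.2 points, or -2.87 with equal weight per CpG, lower in both iKO libraries either way. Gm13135 (147275617 to 147279329, 103 CpGs) was at 42.5% and 34.6% against 37.9% and 38.0%, with overlap, and at -4.65 points without overlap when each CpG counted equally.

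Pooled over all windows, replicates of the cluster lay closer together than those of the rest of the genome. Replicate 1 minus replicate 2 was 0.0298 points for iKO and -2.66 for control libraries within the cluster, against 2.34 and -3.54 elsewhere. Within depth classes of the cluster the iKO gap went both ways and partly cancelled in the pool. iKO replicates 1 and 2 were at 49.0% and 51.4% for ratios under 0.75, and at 56.3% and 55.0% for ratios of 1.5 to 3.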
